A study of Marchantia polymorpha and Klebsormidium nitens with 56 samples.

Results

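MpBBX6 (identifier Mp2g16350, on chromosome 2 by its identifier) is a B-box gene of the liverwort Marchantia polymorpha, and its transcript level was followed across every group of an RNA sequencing experiment on heat and heat shock factors. The gene was taken as 1 row of the 20574 genes in the first count table, and it was selected on its measured read counts across the groups of that table. Its levels and the differences between its groups are therefore given as a description, with standard errors and without p-values. It is 1 of 6 genes of the table whose reference symbol marks them as B-box genes (MpBBX1 to MpBBX6).

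B-box proteins carry 1 or more zinc-binding B-box domains near the amino terminus, which mediate contacts between proteins, and some also carry a second domain that contacts DNA or partner factors. In Arabidopsis, members of the family act in light signalling, flowering time and the link between light and the circadian clock, and several are bound or degraded through the COP1 ubiquitin ligase. Heat shock factors of class A1 are transcription factors that switch on chaperone genes when proteins unfold, while class B factors in Arabidopsis mostly act as repressors.

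The libraries came from whole gemmalings, the young plants that grow from gemmae, which were 7 days old and had grown in liquid medium at 22 °C in continuous light. Heated plants were placed at 37 °C, for a time that the sample labels leave out. Tak-1 is the male wild type and BC3 the female wild type. The hsfa1y and hsfb1 knockout lines are in the male background. The hsfa1x line is in the female background. Its genotype field reads as an overexpression line while the sample sheet lists a knockout, and it is treated as a knockout here. These 5 lines had libraries with and without heat. Plants overexpressing HSFA1X (HSFA1Xox) or HSFA1Y (HSFA1Yox), in Tak-1 and in BC3, had libraries without heat alone. The number of independent clones behind each mutant or overexpression line is not given in the sources used here. Each of the 14 groups held 2 libraries, which the series describes as biological replicates, so the spread of a group rests on 2 values.

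The 28 libraries held 17.7 to 23.997 M reads (median 20.1 M), of which 5.13 to 7.94% fell on the top 10 genes. Genes with a V chromosome identifier, which mark male plants, took 0.207 to 0.271% of reads in the 16 libraries labelled male and 0.0385 to 0.0948% in the 12 labelled female. The top of the female range came from HSFA1Yox in BC3 (0.0881 and 0.0948%), and the other female libraries took at most 0.0604%. The cause was not tested. The reference gives no symbol that pairs a row with HSFA1X, HSFA1Y or HSFB1, so the targeted genes were not checked in the libraries. MpBBX6 was covered by 149 to 2488 reads per library, for which counting alone gives a relative standard error of 8.19% at the fewest reads and 2.00% at the most. Levels are in CPM (reads of a gene scaled by library total and TMM factor), and a level of 1 gene is compared only with its own level elsewhere.

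MpBBX6 was low in every unheated library and higher in every heated one. In the 18 unheated libraries its level ran from 7.17 to 13.8 CPM with a median of 9.49, and in the 10 heated libraries from 28.8 to 132 CPM with a median of 81.8. The lowest heated library, from the hsfa1y line, was still above the highest unheated one. Without the hsfa1y line, the heated libraries ran from 72.7 to 132 CPM. In whole plants, a higher level per cell and a larger share of cells that hold the transcript cannot be told apart.

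In Tak-1, MpBBX6 was at 10.3 and 9.48 CPM without heat and at 121 and 132 CPM with heat. The BC3 libraries gave 7.35 and 7.17 CPM without heat and 72.7 and 82.8 CPM with heat. In both wild types the heated and unheated libraries were far apart. The log2 difference was 3.67 ± 0.11 (SE, n = 2 libraries per group) in Tak-1, a 12.8-fold higher level, and 3.42 ± 0.11 in BC3, a 10.7-fold higher level. This SE, here and below, uses a spread estimated over all 28 libraries, so it does not measure the spread of the compared libraries alone. Of the 13432 genes that passed the filter on low counts, 94 had a larger log2 increase with heat than MpBBX6 in Tak-1 and 109 in BC3. Over all tested genes, 25.6% were called higher with heat in Tak-1 and 23.9% in BC3 at an adjusted p of 0.05 (edgeR quasi-likelihood test).

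**Figure D1:**
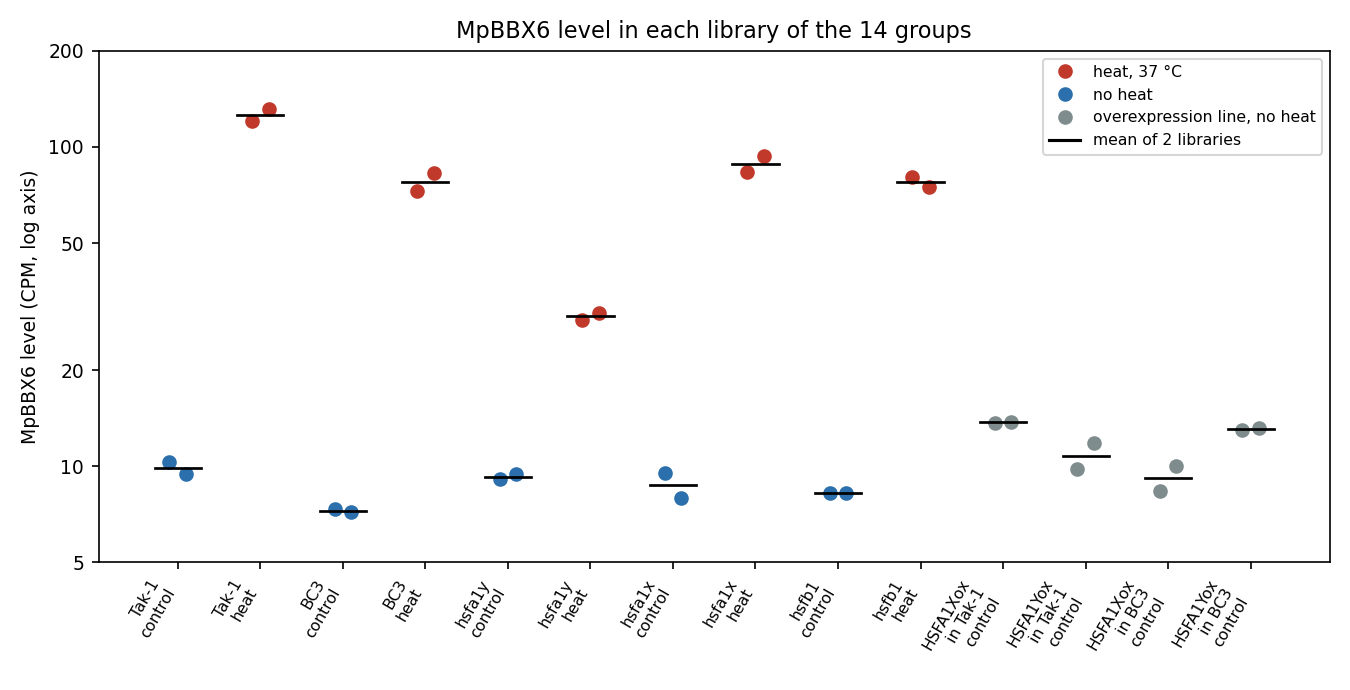
MpBBX6 level in each of the 28 libraries (points, CPM on a log axis) by group, with the mean of the 2 libraries as a bar. The heated libraries of Tak-1, BC3, hsfa1x and hsfb1 lie between 72.7 and 132 CPM, those of hsfa1y at 28.8 and 30.3 CPM, and all unheated libraries between 7.17 and 13.8 CPM.

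The hsfa1y knockout held the lowest heated level of MpBBX6. Its libraries were at 9.12 and 9.45 CPM without heat and at 28.8 and 30.3 CPM with heat. Without heat, the level of hsfa1y was just below the lower Tak-1 library, and the log2 difference between the lines was -0.09 ± 0.12, smaller than its error. With heat, both hsfa1y libraries were far below both Tak-1 libraries, at 29.5 ± 1.06 CPM (SD, n = 2) against 126 ± 7.96 CPM. The log2 difference with heat was -2.09 ± 0.09, which is a 4.27-fold lower level, and 237 of the tested genes (1.76%) had a larger decrease in this comparison.

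Even so, both heated hsfa1y libraries were above both unheated ones, by 1.67 ± 0.11 on the log2 scale, or 3.18-fold. This is 45.4% of the log2 difference seen in Tak-1, and the heat response of hsfa1y was smaller than that of Tak-1, with a difference of -2.005 ± 0.15 on the log2 scale. In hsfa1y, 372 of the tested genes (2.77%) had a larger increase with heat than MpBBX6.

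For scale, 47 other tested genes had a heat response within 0.5 log2 units of that of MpBBX6 in Tak-1. In hsfa1y, the log2 heat responses of these 47 genes had a median of 0.99, with quartiles of 0.14 and 2.84 and a range from -2.94 to 5.10. MpBBX6, at 1.67, was above 28 of them and below 19. The spread among genes of like response in Tak-1 was thus wide, and MpBBX6 lay between its quartiles. The 47 were picked on their Tak-1 response, with no limit on level beyond the filter on low counts. A gene can pass that filter through its heated Tak-1 reads alone. How far genes of few reads widen the spread was not tested, so the place of MpBBX6 among the 47 is a description only. In BC3, which is also wild type, the same 47 genes had a median of 3.09 and quartiles of 2.20 and 3.67, and MpBBX6 was above 27 of them. In hsfa1x their median was 3.03 with quartiles of 2.02 and 3.32, and MpBBX6, at 3.34, was above the upper quartile and above 35 of the 47.

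**Figure D2:**
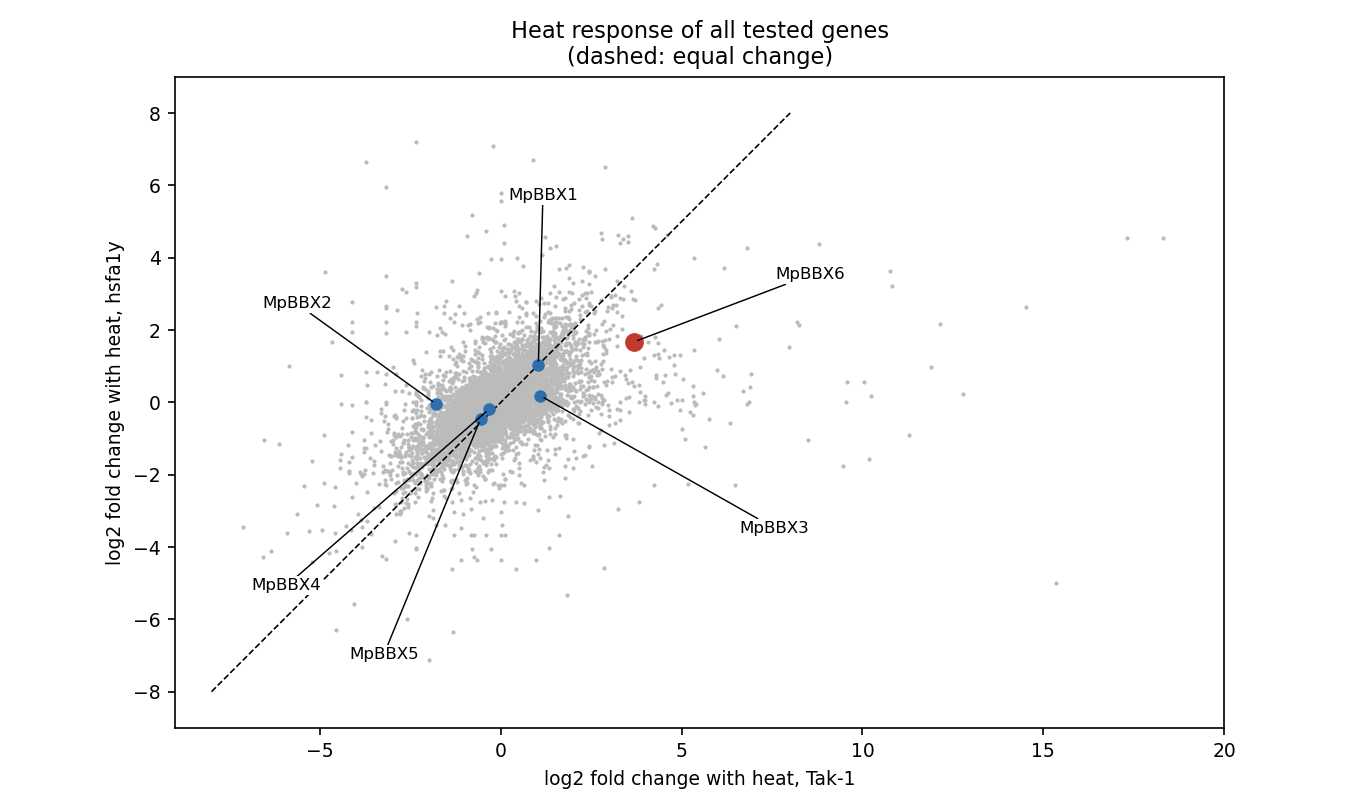
Log2 fold change with heat of each tested gene (grey points) in Tak-1 (horizontal axis) and in hsfa1y (vertical axis), with the B-box genes marked and a dashed line of equal change. MpBBX6 sits at 3.67 and 1.67, below the line. MpBBX1 lies on the line at 1.04 and 1.03, and MpBBX2 and MpBBX3 lie close to 0 on the vertical axis.

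In the hsfb1 knockout, MpBBX6 was at 8.22 and 8.23 CPM without heat and at 80.7 and 74.9 CPM with heat. The unheated libraries were both below those of Tak-1, by a log2 difference of -0.26 ± 0.12. The heated libraries were also below those of Tak-1, by -0.70 ± 0.09 on the log2 scale, a 1.62-fold lower level. The heat response itself was 3.24 ± 0.11 (9.45-fold), which is 88.2% of the log2 response of Tak-1, and the difference between the responses was -0.43 ± 0.15. Against the 47 genes of like response in Tak-1, whose median in hsfb1 was 2.404 with quartiles of 1.15 and 3.29, MpBBX6 was above 34.

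In the hsfa1x line, MpBBX6 was at 9.50 and 7.93 CPM without heat and at 83.5 and 93.8 CPM with heat. Both conditions lay somewhat above BC3, by 0.26 ± 0.13 on the log2 scale without heat and by 0.19 ± 0.09 with heat (1.14-fold). The heat response was 3.34 ± 0.11 (10.2-fold), or 97.8% of the log2 response of BC3, and the difference between the responses was -0.07 ± 0.15, smaller than its error. The heated hsfa1x libraries had 1884 and 1884 reads of MpBBX6 and the heated BC3 libraries 1636 and 1636. These equal counts arose in libraries of different total size, and over all genes the libraries of each pair differed by more than counting error (chi-square per degree of freedom of 7.73 for hsfa1x and 16.1 for BC3).

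The wild types also differed from each other. BC3 was below Tak-1 by a log2 difference of -0.45 ± 0.12 without heat (1.36-fold lower) and of -0.70 ± 0.09 with heat (1.62-fold lower), and the libraries did not overlap in either condition. The difference between their heat responses was -0.25 ± 0.15. BC3 and Tak-1 differ in sex as well as in line, and these cannot be told apart here.

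In the overexpression lines, which were not heated, MpBBX6 ran from 8.38 to 13.8 CPM (median 12.4), against 7.17 to 10.3 CPM (median 8.68) in the 10 unheated libraries of the other lines. The values of 5 of the 8 overexpression libraries were above that range. HSFA1Xox in Tak-1 was at 13.7 and 13.8 CPM and HSFA1Yox in Tak-1 at 9.80 and 11.8 CPM. HSFA1Xox in BC3 gave 8.38 and 9.999 CPM, and HSFA1Yox in BC3 gave 12.97 and 13.1 CPM. The highest of these 8 values, 13.8 CPM, compares with 28.8 CPM in the lowest heated library.

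Against the wild type of its background, HSFA1Yox in BC3 showed the largest difference of the 4 lines, at 0.85 ± 0.12 on the log2 scale (1.80-fold higher). A larger increase in that comparison was found for 632 of the tested genes (4.71%). HSFA1Xox was higher than its wild type by 0.47 ± 0.11 in Tak-1 (1.39-fold) and by 0.34 ± 0.13 in BC3 (1.27-fold). For HSFA1Yox in Tak-1 the difference was 0.13 ± 0.12 (1.09-fold), and its libraries overlapped those of Tak-1. The 2 comparisons in each background share their control libraries.

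Ordered by mean level, the groups fell from heated Tak-1 (126 CPM) through heated hsfa1x (88.7 ± 7.26 CPM, SD, n = 2), heated hsfb1 (77.8 ± 4.08 CPM) and heated BC3 (77.7 ± 7.19 CPM) to heated hsfa1y (29.5 CPM). The unheated groups followed, from HSFA1Xox in Tak-1 (13.7 ± 0.106 CPM) and HSFA1Yox in BC3 (13.1 ± 0.118 CPM) to HSFA1Yox in Tak-1 (10.8 ± 1.42 CPM), Tak-1 (9.89 ± 0.586 CPM) and hsfa1y (9.29 ± 0.236 CPM). HSFA1Xox in BC3 (9.19 ± 1.14 CPM), hsfa1x (8.71 ± 1.11 CPM), hsfb1 (8.23 ± 0.00742 CPM) and BC3 (7.26 ± 0.127 CPM) closed the order. Among the neighbours in this order, the libraries of heated hsfb1 and heated BC3 overlapped, as did those of HSFA1Yox in Tak-1 and Tak-1, of hsfa1y and HSFA1Xox in BC3, of HSFA1Xox in BC3 and hsfa1x, and of hsfa1x and hsfb1. The libraries of unheated Tak-1 and hsfa1y were separated by 0.0238 CPM alone, less than the counting error.

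The other B-box genes did not share the size of the MpBBX6 response. In Tak-1, 2 of the other 5 were called higher with heat and 3 lower, where 25.6% and 25.5% of all tested genes were called higher and lower. The counts were again 2 and 3 in BC3 (23.9% and 24% of all genes) and in hsfa1x (19.8% and 22%). In hsfb1, 2 were higher and 2 lower (18.8% and 21.6%), and in hsfa1y 2 were higher and 2 lower (22.1% and 22.4%). The median log2 change of the 5 was -0.32 in Tak-1 and -0.46 in BC3. In the mutant lines it was -0.04 (hsfa1y), -0.30 (hsfa1x) and -0.17 (hsfb1), while the median of all tested genes lay between -0.04 and 0.00. The names MpBBX1 to MpBBX6 were matched by symbol, and no role in the liverwort is assigned to each of them here.

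MpBBX3 (Mp3g19670) rose with heat in the wild types, from 69.4 and 70.8 CPM to 148 and 151 CPM in Tak-1 and from 54.9 and 60.5 CPM to 123 and 130 CPM in BC3. In hsfa1y it went from 77.0 and 73.9 CPM to 85.9 and 85.2 CPM. The heated hsfa1y libraries were thus above the unheated ones but far below heated Tak-1. The log2 change of MpBBX3 was 1.10 ± 0.06 in Tak-1 and 0.18 ± 0.06 in hsfa1y (adjusted p = 0.0338), and the difference between these responses was -0.91 (adjusted p = 1.36e-07). That call in hsfa1y was lost when low counts were not filtered, when only the compared groups were fitted, and when any 1 of the 4 libraries was left out.

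MpBBX2 (Mp3g20050) changed in the opposite direction to MpBBX6 in the wild types. It fell with heat in Tak-1 from 7.05 and 7.30 CPM to 2.12 and 2.01 CPM (39 and 38 reads). In BC3 it fell from 4.37 and 3.70 CPM to 0.844 and 0.709 CPM (19 and 14 reads). The hsfa1y libraries of MpBBX2 were at 9.32 and 8.04 CPM without heat and at 8.32 and 8.50 CPM with heat, so that the conditions overlapped. The log2 change of MpBBX2 was -1.79 ± 0.21 in Tak-1 and -0.04 ± 0.18 in hsfa1y (adjusted p = 0.875), and the responses differed by 1.75 (adjusted p = 7.36e-05). In hsfa1x it was -1.54 and in hsfb1 -1.98.

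MpBBX2 was also lower in all 4 overexpression lines without heat, on 29 to 65 reads per library. Its log2 changes were -1.56 (HSFA1Xox) and -1.68 (HSFA1Yox) against Tak-1, and -1.28 (HSFA1Xox) and -0.97 (HSFA1Yox) against BC3. Of the 5 other B-box genes, 4 were called lower in HSFA1Xox against Tak-1 (17.4% of all genes) and 4 in HSFA1Yox against Tak-1 (19.5%). Against BC3 the counts called lower were 1 in HSFA1Xox (11% of all genes) and 2 in HSFA1Yox (10.9%). None of the 5 was called higher in an overexpression line, where 15.1% (HSFA1Xox) and 16.1% (HSFA1Yox) of all genes were called higher against Tak-1 and 10.5% and 9.19% against BC3. MpBBX6, in contrast, had positive log2 differences in all 4 lines, with the overlap in HSFA1Yox in Tak-1 given above.

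MpBBX1 (Mp5g05940) rose with heat in every line, by 1.04 in Tak-1 and 0.93 in BC3 on the log2 scale, and by 1.03, 0.56 and 0.51 in hsfa1y, hsfa1x and hsfb1. Its heated libraries in hsfa1y, the line in which MpBBX6 responded least, were above those of heated Tak-1. MpBBX4 (Mp8g01190) and MpBBX5 (Mp8g13470) changed least in Tak-1, by -0.32 and -0.56. MpBBX5 fell in all 5 lines. MpBBX4 fell in 4, and its change of -0.17 in hsfb1 did not pass (adjusted p = 0.0517). In hsfa1y the change of MpBBX4 was -0.19 (adjusted p = 0.0257), a call that 5 of the 9 alternatives did not keep.

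**Figure D3:**
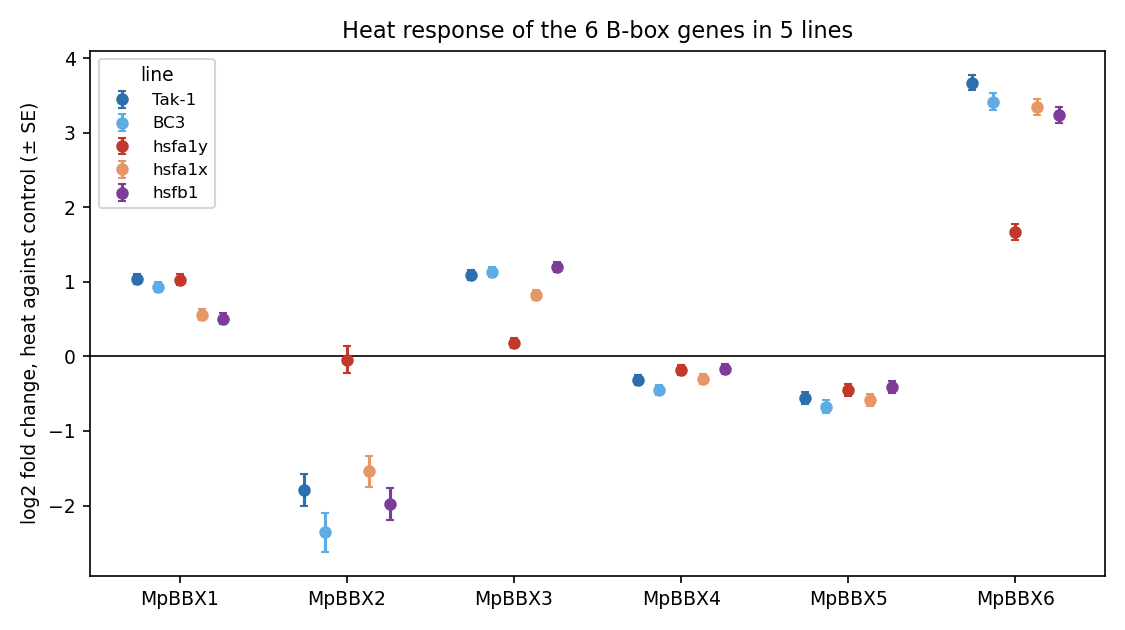
Log2 fold change with heat ± SE for the 6 B-box genes in Tak-1, BC3, hsfa1y, hsfa1x and hsfb1 (points of different colours). MpBBX6 stands at 3.24 to 3.67 in 4 lines and at 1.67 in hsfa1y, while the other 5 genes lie between -2.36 and 1.20.

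Between lines, the other B-box genes were compared with the same tests. Without heat, 1 of 5 was higher in hsfa1y than in Tak-1 and 0 lower (4.86% and 3.15% of all genes), 0 were higher and 4 lower in hsfb1 (17.8% and 16.5%), and 3 were higher and 0 lower in hsfa1x than in BC3 (11.3% and 7.36%). With heat the counts were 3 higher and 1 lower in hsfa1y (15.4% and 13.2%), 0 and 3 in hsfb1 (18.4% and 20.6%) and 2 and 0 in hsfa1x (5.67% and 7.29%). In BC3 against Tak-1, 0 were higher and 3 lower without heat (6.95% and 12%), and 0 were higher and 5 lower with heat (8.3% and 10.3%). MpBBX6 was likewise below Tak-1 in BC3 in both conditions, with the values given above. The heat response differed from Tak-1 for 2 of 5 in hsfa1y, with 1 higher and 1 lower (6.6% and 7.88% of all genes), and for 1 in hsfb1, which was lower (0 were higher, against 5.26% and 6.57% of all genes higher and lower). In hsfa1x against BC3, 0 were higher and 1 lower (1.72% and 4.15%). In BC3 against Tak-1 the heat response of 0 was called (4.26% of all genes higher and 1.98% lower).

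Because B-box proteins are known from light signalling and the clock in Arabidopsis, genes with reference symbols of those pathways were counted beside MpBBX6. Of 13 light signalling genes, heat gave 5 calls higher and 4 lower in Tak-1, 3 and 4 in BC3, 6 and 4 in hsfa1y, 3 and 5 in hsfa1x and 3 and 4 in hsfb1. For comparison, of all tested genes, 25.6% and 25.5% were called higher and lower in Tak-1, 23.9% and 24% in BC3, 22.1% and 22.4% in hsfa1y, 19.8% and 22% in hsfa1x and 18.8% and 21.6% in hsfb1. Without the first heated BC3 library the 3 called higher in BC3 became 1, and without the first unheated hsfa1x library the 5 called lower in hsfa1x became 3. The median log2 change of the light genes lay between -0.09 and 0.16 in these lines, against -0.04 to 0.00 for all tested genes. In the lines other than hsfa1y, none of the 13 changed as much as MpBBX6. In hsfa1y, MpFHY1 had a log2 change of -1.70, beside 1.67 for MpBBX6.

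The light genes with the largest changes in Tak-1 were a set of 6. MpFHY1, whose Arabidopsis counterpart carries phytochrome A into the nucleus, fell by 1.93 ± 0.22 on the log2 scale, from 17.2 and 17.1 CPM to 5.00 and 3.97 CPM, and was also called lower in the other 4 lines. MpUVR8, the receptor of ultraviolet B light, rose by 0.79 ± 0.07 in Tak-1 and by 0.38 ± 0.07 in hsfa1y, a smaller response (difference -0.41, adjusted p = 0.00578). MpCOP1, a ubiquitin ligase component that acts against light responses in darkness, rose by 0.54 ± 0.08 in Tak-1 and by 0.70 ± 0.08 in hsfa1y, and the difference between these responses did not pass (adjusted p = 0.409). MpDDB1, an adaptor of cullin ubiquitin ligases, rose by 0.41 ± 0.06 in Tak-1, and its change of 0.07 ± 0.06 in hsfa1y did not pass (adjusted p = 0.436). The blue light receptor MpPHOT and the photolyase relative MpCRY-DASH were both lower with heat in Tak-1, by log2 changes of -0.52 and -0.52, and were called lower in every other line too.

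Of 6 clock genes, heat gave 3 calls higher and 0 lower in Tak-1, 2 and 1 in BC3, 1 and 1 in hsfa1y, 2 and 1 in hsfa1x and 3 and 0 in hsfb1. These counts stand beside the shares of all tested genes given above, from 18.8% to 25.6% in each direction. Several of them turned on 1 library. The count lower in BC3 became 0 without unheated library 1 or heated library 2 and 2 without heated library 1. In hsfa1y the count lower became 0 without unheated library 1 or heated library 2 and 2 without unheated library 2 or heated library 1, and the count higher became 2 without heated library 2. In hsfa1x the count higher became 1 without unheated library 2 or either heated library, and the count lower became 0 without unheated or heated library 1. MpELF4, named for a member of the evening complex in Arabidopsis, rose in all 5 lines, by 0.39 ± 0.07 in Tak-1 and 0.29 ± 0.07 in hsfa1y. MpELF3, of the same complex, rose by 0.53 ± 0.14 in Tak-1 (adjusted p = 0.00357). Its heated and unheated libraries overlapped in BC3 (211 and 149 against 182 and 149 CPM) and hsfa1y, but not in hsfa1x and hsfb1. MpFKF, named for a blue light receptor of the flowering pathway, rose by 0.25 ± 0.06 in Tak-1 (adjusted p = 0.00153). Its mean rose from 84.5 to 99.0 CPM in BC3 and from 70.6 to 79.7 CPM in hsfb1. In hsfa1y it went from 95.3 to 97.9 CPM and in hsfa1x from 91.5 to 91.0 CPM. MpTOC1, MpPRR and MpGI, all of the clock in Arabidopsis, had log2 changes of -0.11, 0.04 and -0.02 in Tak-1 that did not pass (adjusted p = 0.392, 0.767 and 0.893). Over the 5 lines the log2 changes of the clock genes lay between -0.39 and 0.63, and the time of day of harvest is not given in the labels.

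**Figure D4:**
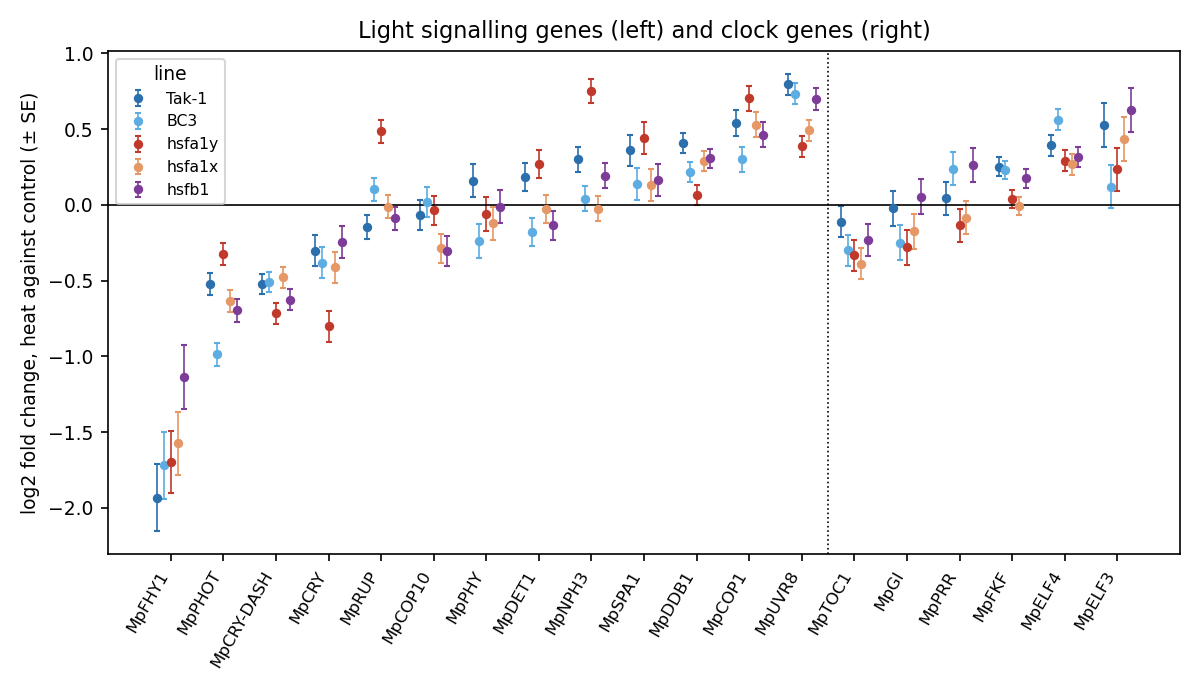
Log2 fold change with heat ± SE of 13 light signalling genes (left of the dotted line) and 6 clock genes (right) in the 5 lines, each part ordered by the change in Tak-1. MpFHY1 is lowest at -1.93 in Tak-1 and MpUVR8 highest at 0.79, so every change in Tak-1 is smaller than the 3.67 of MpBBX6.

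The genes whose levels followed MpBBX6 most closely were found by the Pearson correlation of log2(CPM + 1) over the 14 group means, across 13431 other tested genes. The groups share heat and genotype as factors and are not independent points. The genes were picked on these same means, so their likeness to MpBBX6 with heat and in hsfa1y follows from the choice. The correlation exceeded 0.9 for 447 genes, 0.95 for 143 and 0.99 for 0, with a median of -0.0292. The closest 7 were Mp4g15120 (r = 0.988), Mp3g15540 (0.988), Mp7g11850 (0.985), Mp2g17420 (0.984), MpHSP90-2 (Mp2g04900, 0.983), Mp2g04890 (0.983) and Mp7g10020 (0.982). With Spearman correlation over the group means, 0 of the closest 8 by Pearson correlation were among the closest 8, and with Pearson correlation over the 28 libraries 5 were.

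MpHSP90-2 encodes a chaperone of the HSP90 family, and it was the closest gene with a symbol. In Tak-1 it was at 83.5 and 94.1 CPM without heat and at 675 and 638 CPM with heat, and in hsfa1y at 78.6 and 87.3 CPM and at 293 and 258 CPM. Its log2 heat response was 2.89 ± 0.08 in Tak-1 and 1.73 ± 0.08 in hsfa1y, beside 3.67 and 1.67 for MpBBX6. The identifier next to it, Mp2g04890, had a response of 3.20 ± 0.08 in Tak-1 and 1.82 ± 0.08 in hsfa1y, and reads shared between near-identical copies could not be checked for this pair.

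The other genes with symbols among the closest were MpC3H21 (r = 0.978), MpCM (0.977), MpPPR_41 of the pentatricopeptide repeat family (0.973) and MpASF1, named for a histone chaperone (0.970). Their log2 heat responses in Tak-1 were 1.64, 1.47, 2.23 and 1.67, and in hsfa1y 0.56, 0.75, 0.44 and 0.41. The most opposed genes with symbols were MpBHLH52 (r = -0.979), MpERF11 (-0.977) and MpGRP7 (-0.976). MpERF11, of the ethylene response factor family, went from 19.3 ± 0.440 CPM (SD, n = 2) to 2.23 ± 0.0762 CPM with heat in Tak-1 and from 20.5 ± 0.579 CPM to 5.38 ± 1.61 CPM in hsfa1y.

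**Figure D5:**
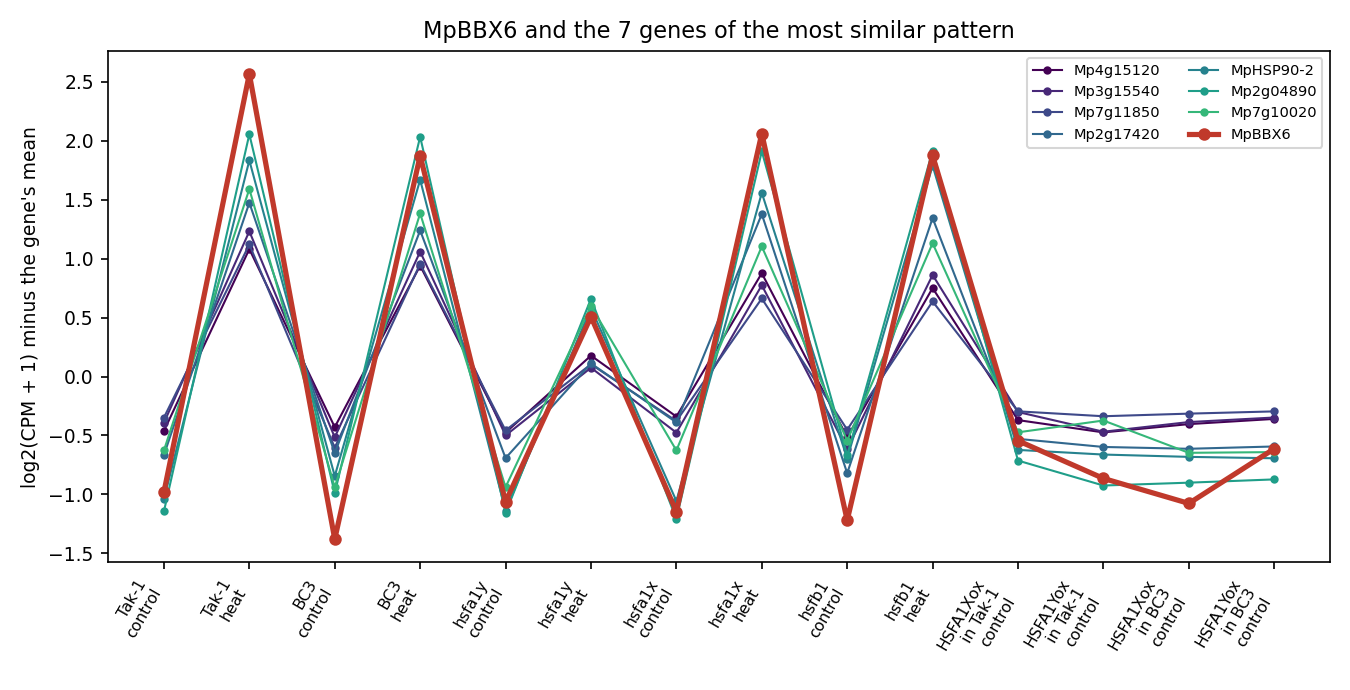
Group means of log2(CPM + 1), minus the mean of each gene over the 14 groups, for MpBBX6 (thick line) and the 7 genes of highest Pearson correlation with it. Each gene is high in the 5 heated groups and low in the 9 unheated groups. Among the heated groups, each is lowest in hsfa1y. The genes were picked by correlation over these same group means, so the shared pattern follows from the choice. Lines join groups only to guide the eye.

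By the reference annotation, 0 genes overlap MpBBX6. Of the 3 genes with identifiers on either side of it in the reference order, 3 of the 6 passed the filter on low counts. In Tak-1 with heat, Mp2g16320 had a log2 change of 0.19 (adjusted p = 0.302), Mp2g16330 of -0.13 (adjusted p = 0.349) and Mp2g16380 of -0.30 (adjusted p = 0.00123, lower), and none of them was called higher with heat in any of the 5 lines. MpTRIHELIX28 (Mp2g16340), Mp2g16370 and Mp2g16390 had too few reads to be tested. These neighbours were chosen after the MpBBX6 values were seen.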

How the data were processed

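Transcript levels were measured by RNA sequencing (RNeasy kit, NovaSeq, per the labels' protocols). The authors deposited raw whole-number read counts for each gene, not normalized. The submitters' processing notes name STAR as aligner. Not given in the sources used here are its version, the counting program, the genome build, strandedness and the treatment of multiply mapping reads. Each could shift the counts of related genes. Strand could also mix in reads of antisense transcripts.

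One identifier present more than once was summed, which left 20574 genes. The other tables use identifiers not paired with these, and they and the chromatin samples were not analysed here. Symbols came from a reference table (assembly MpTak2_v7.1) by locus tag. It matched 17641 genes and gave symbols to 3091. Gene length and level correlated at a Spearman rho of 0.501 for the match used and at most 0.103 when shifted by up to 5 genes. No coordinates or sequences are printed.

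Counts were fitted with edgeR 4.0.16 in R 4.3.3, with TMM scaling, filterByExpr, 1 mean per group and the quasi-likelihood F test over all 28 libraries. P-values were adjusted by Benjamini-Hochberg over 13432 genes, with a threshold of 0.05. SE is the absolute log2 change divided by the square root of F, with the spread shared over all 28 libraries. The fit was also run on simulated counts with the same spread for every gene and changes placed in heated Tak-1 alone. That run does not cover the other comparisons or the uneven spread of the real groups. The libraries of each group differed by more than counting noise (chi-square per degree of freedom of 2.29 to 17.7). CPM values divide by library total times TMM factor. Named genes were MpBBX6, the B-box symbols, up to 6 light and 6 clock symbols by size of change in Tak-1, and the genes of most similar and opposed pattern (8 closest, of which 1 is not reported here). The pseudocount for correlations was 1. MpBBX6 and the lists were chosen with earlier results of these data known, and the pattern that matched MpFKF was added after symbols were seen. Alternatives were RLE scaling, DESeq2 1.42.0, no filter, a fit of only the compared groups, a replicate block and leaving out each library.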

Additional observations from a re-analysis of the deposited data

Results flagged for a closer look

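The heat response of several other B-box and light genes differed between lines by the interaction term of the edgeR quasi-likelihood fit, with p-values adjusted over 13432 genes, and each of these is an effect of 2 libraries per group. MpBBX3 responded less in hsfa1y than in Tak-1, by -0.91 on the log2 scale (adjusted p = 1.36e-07), and MpBBX2 responded with a smaller decrease, a difference of 1.75 (adjusted p = 7.36e-05).

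MpBBX1 responded less in hsfb1 than in Tak-1, by -0.53 (adjusted p = 0.00103), and less in hsfa1x than in BC3, by -0.37 (adjusted p = 0.0311). The hsfa1x difference of MpBBX1 was not called under 7 of its 13 alternatives.

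Among the 13 light genes, the heat response differed between hsfa1y and Tak-1 for 5, with 2 higher and 3 lower in hsfa1y (6.6% and 7.88% of all tested genes). Higher and lower here give the sign of the log2 difference. The 2 with a higher response were MpRUP (0.63, adjusted p = 0.000152) and MpNPH3 (0.45, adjusted p = 0.00820). MpCRY fell further with heat in hsfa1y than in Tak-1 (difference -0.499, adjusted p = 0.0191). Its mean went from 247 to 142 CPM in hsfa1y and from 198 to 160 CPM in Tak-1. MpRUP, MpNPH3 and MpCRY lie outside the rule for named genes and were chosen after their values were seen. MpUVR8 and MpDDB1 responded less in hsfa1y than in Tak-1, by -0.41 (adjusted p = 0.00578) and -0.34 (adjusted p = 0.0109). MpPHOT fell further in BC3 than in Tak-1, a difference of -0.46 (adjusted p = 0.00659), and less far in hsfa1x than in BC3, a difference of 0.35 (adjusted p = 0.0481). That hsfa1x call lies close to the threshold of 0.05. Over all genes, the same comparison went from 788 to 91 calls when only the compared groups were fitted.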

How the results depend on the processing

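Over 21 MpBBX6 differences and 205 combinations with an alternative, the largest shift was 0.15 log2 units. Leaving out 1 library gave 3.33 to 3.52 for heat in BC3, 3.19 to 3.30 in hsfb1 (3.30 with only the compared groups), -0.33 to -0.21 for hsfb1 against Tak-1 without heat, 0.13 to 0.40 for hsfa1x against BC3 without heat, and -2.15 to -2.02 for hsfa1y and -0.78 to -0.58 for BC3 against Tak-1 with heat. It gave 0.41 to 0.53 for HSFA1Xox against Tak-1. For the differences between heat responses it gave -2.05 to -1.93 (hsfa1y), -0.49 to -0.35 (hsfb1), -0.33 to -0.14 (BC3 against Tak-1). The sign changed for HSFA1Yox against Tak-1 (-0.0071 to 0.27) and for the heat response of hsfa1x against BC3 (-0.21 to 0.058), both already within or near 1 SE of 0.

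Among the other B-box genes, the counts called with heat in hsfa1y went from 2 to 1 higher and from 2 to 1 lower with no filter and with only the compared groups, and to 1 and to 1 to 2 when a library was left out. Of 485 alternatives for single B-box genes, 18 lost a call, 3 gained one and 0 changed direction. Of 180 combinations of a light or clock count with an alternative, 25 moved the count by over 1.5 times, or to or from 0.

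Over all genes, fitting only the compared groups moved hsfa1x against BC3 from 2508 to 1238 calls without heat and from 1741 to 713 with heat, their heat response from 788 to 91, and BC3 against Tak-1 with heat from 2505 to 1500. The no-filter fit moved the response of BC3 against Tak-1 from 838 to 1300. Leaving out a library gave 401 to 967 calls for hsfa1y against Tak-1 without heat (1076 in full), 1409 to 2984 and 872 to 1593 for hsfa1x against BC3 without and with heat, 1764 to 2537 for HSFA1Xox and 1771 to 2189 for HSFA1Yox against BC3 (2891 and 2705 in full), 1612 to 1974 and 1059 to 3056 for BC3 against Tak-1 without and with heat (2548 without heat in full), and 1048 to 1358, 319 to 1587 and 512 to 1289 for the responses of hsfb1 (1589 in full), hsfa1x and BC3. The cause was not tested.

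Same-numbered libraries deviated together by correlations of -0.32 to 0.35 over the comparisons, so the 2 numbers were not taken as a pairing. With the replicate block, the MpBBX6 heat response was 3.67 in Tak-1 and 1.67 in hsfa1y, and no B-box count moved. With Spearman correlation 0 and with 28 libraries 5 of the 8 closest genes stayed the same. The time course of the second table was not run, since its identifiers are not paired with MpBBX6. Depth limits MpBBX6 little with heat, and without heat its 149 to 312 reads leave small differences within counting error.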
